A study of Mus musculus with 21 samples.

Results

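The genes followed here are 5 EphA receptor genes (Epha3, Epha4, Epha5, Epha7 and Epha8) and 5 ephrin-A ligand genes (Efna1, Efna2, Efna3, Efna4 and Efna5), in motor neurons (MNs) made from mouse embryonic stem cells (mESCs). They were chosen by name, and all 10 were found among the 55400 genes of the count table. The study profiled mRNA in 7 groups of 3 libraries, 21 in all, to follow gene activity through MN differentiation and under a Kdm6 inhibitor. C57BL/6 wild-type mESCs, grown on mouse embryonic fibroblasts, were formed into embryoid bodies and exposed to retinoic acid and the Sonic Hedgehog agonist SAG. DAPT, a Notch pathway inhibitor, was given from day 4 to direct the cells to hypaxial motor column (HMC) identity. The untreated groups were day 4 (D4), day 4 plus 8 hours (D4H8), day 5 (D5) and day 6 (D6). The treated groups (D4H8+GSKJ4, D5+GSKJ4 and D6+GSKJ4) were given GSKJ4, an inhibitor of the histone H3K27 demethylases Kdm6a and Kdm6b, from the day before collection. All groups share the genotype and the early exposure to retinoic acid and SAG. Later stages carry longer DAPT exposure, and from day 5 the protocol names a basal medium with DAPT in place of the medium with retinoic acid and SAG, so stage and these agents cannot be told apart. The cells are cultured embryoid bodies without muscle, limb or sensory axons, and whole bodies were lysed.

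Eph receptors are receptor tyrosine kinases that bind ephrins on neighbouring cells, and contact usually makes a growing axon turn away. EphA receptors mainly bind ephrin-A ligands, which are held to the membrane by a glycolipid anchor and can also signal back into the cell that carries them. In the spinal cord this pair of families is known for steering motor axons to their muscles, with Epha4 directing limb-innervating axons and Epha3 and Epha4 keeping axons of the medial motor column apart from sensory axons. Motor axons carry both receptors and ligands, so the balance of the pair on 1 neuron matters as well as the target.

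Levels are given as FPKM, a count scaled to exonic length and to the counted reads of the library, which allows levels of different genes to be compared. Changes are log2 fold changes with standard errors (SE) from edgeR's quasi-likelihood test on the raw counts, and a gene was called at a Benjamini-Hochberg adjusted p under 0.05 over all genes tested. Total counts ran from 14982115 to 34383842 per library (median 16238435), the highest in D4H8 replicate 1. The labels call the 3 libraries of a group biological replicates, so p-values measure the spread between these samples. D5+GSKJ4 replicate 2 stood apart, listing 39381 genes without a count where the rest listed 29339 to 32805. The summed FPKM of 8 MN genes ran from 9.49 to 24.2 at D4, from 60.6 to 63.4 at D4H8, from 261 to 314 at D5 and from 612 to 672 at D6, none of them at 0. Some markers of other cells were also called between D4 and D6, beside 63.9% of all 17519 genes called in that comparison. The 7 spinal interneuron markers summed to 1.45 to 1.84 FPKM at D4, with En1 and Evx1 at 3 counts or fewer in each library, and to 4.50 to 6.19 at D6, where 4 of the 5 tested rose. The 4 glial markers summed to 0.36 to 0.65 FPKM at D4 and 0.84 to 1.78 at D6, and the 1 tested, Aldh1l1, rose. The 7 feeder fibroblast markers summed to 6.19 to 20.04 FPKM at D4 and 12.8 to 28.3 at D6, where Dcn and Col3a1 rose and Fbn1 fell, and the 5 endothelial markers to 1.43 to 3.10 and 1.53 to 3.95, with 2 of the 4 tested higher. The 5 ventral progenitor genes summed to 142.9 to 213 FPKM at D4 and 152.8 to 219.5 at D6, where Nkx6-1 rose while Olig2, Sox1 and Sox2 fell. The 6 pluripotency genes summed to 122 to 286 FPKM at D4 and 11.9 to 92.3 at D6, where 1, Dppa5a, was called lower and 5 were not called. The part of these cells in the stage results was not tested. These are bulk samples, so fewer cells of a type and less RNA per cell cannot be told apart.

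The receptor genes are spread over the genome, and 3 of the ligand genes are neighbours. On GRCm38, with strands from the GENCODE annotation, the receptors are Epha3 (chr16:63543534-63864175, minus), Epha4 (chr1:77367185-77515088, minus), Epha5 (chr5:84054761-84417382, minus), Epha7 (chr4:28813131-28967499, plus) and Epha8 (chr4:136929419-136956816, minus). Efna2 (chr10:80179482-80190010, plus) and Efna5 (chr17:62604184-62881317, minus) lie alone. Efna1 (chr3:89271733-89281142), Efna3 (chr3:89313899-89322965) and Efna4 (chr3:89333390-89338028) lie on the minus strand within 66296 bp, and Efna3 and Efna4 are 10424 bp apart. Efna3 shares 344 exonic bases with the antisense gene Gm15998 (mean 0.406 CPM against 22.5 CPM for Efna3), and Efna4 shares 168 with the antisense gene 4731419I09Rik (mean 1.31 CPM against 21.4 CPM for Efna4). CPM is the count scaled to library size alone. The counting strand is not given in the sources used here, so those shared reads cannot be assigned to a strand.

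The promoters of 6 members are shown because they carry the results below. Epha5 and Epha8 are the receptors, and Efna3 and Efna5 the ligands, with the largest changes between D4 and D6. Epha3, the 1 member called under GSKJ4, and Efna4, the falling neighbour of Efna3, were added after their values were seen. Each sequence is RefSeq sequence on GRCm38.p6, read 5′ to 3′ on the gene's strand and ending just before the start site, except for Efna3. The last 26 bases before its RefSeq start lie inside the gene as GENCODE annotates it and are not printed. Capitals mark matches on either strand to any of 3 motifs. The first is GGGCGG, the GC box bound by Sp1-type factors. The second is TAATTA, a core that homeodomain factors bind, and reads the same on both strands. The third is CAGNTG, an E-box that basic helix-loop-helix factors bind. A match is a description of the letters only. The windows are chr5:84417383-84417632 (Epha5), chr4:136956817-136957066 (Epha8), chr3:89322966-89323189 (Efna3), chr17:62881318-62881567 (Efna5), chr16:63864176-63864425 (Epha3) and chr3:89338029-89338278 (Efna4), all on the minus strand.
Epha5: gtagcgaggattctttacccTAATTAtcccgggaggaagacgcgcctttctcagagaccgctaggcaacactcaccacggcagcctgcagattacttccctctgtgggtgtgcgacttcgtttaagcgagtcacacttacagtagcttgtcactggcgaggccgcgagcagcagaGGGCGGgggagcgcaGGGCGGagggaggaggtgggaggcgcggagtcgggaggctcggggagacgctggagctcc
Epha8: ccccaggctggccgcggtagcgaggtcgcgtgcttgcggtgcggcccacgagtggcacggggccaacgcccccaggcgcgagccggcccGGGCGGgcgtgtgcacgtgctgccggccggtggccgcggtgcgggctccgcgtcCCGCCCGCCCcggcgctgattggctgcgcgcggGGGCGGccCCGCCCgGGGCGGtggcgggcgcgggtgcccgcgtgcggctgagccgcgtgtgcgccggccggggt
Efna3: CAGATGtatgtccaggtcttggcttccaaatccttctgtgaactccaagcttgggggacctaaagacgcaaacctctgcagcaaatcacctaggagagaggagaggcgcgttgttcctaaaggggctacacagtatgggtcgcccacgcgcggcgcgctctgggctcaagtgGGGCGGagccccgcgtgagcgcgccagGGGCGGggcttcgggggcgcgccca
Efna5: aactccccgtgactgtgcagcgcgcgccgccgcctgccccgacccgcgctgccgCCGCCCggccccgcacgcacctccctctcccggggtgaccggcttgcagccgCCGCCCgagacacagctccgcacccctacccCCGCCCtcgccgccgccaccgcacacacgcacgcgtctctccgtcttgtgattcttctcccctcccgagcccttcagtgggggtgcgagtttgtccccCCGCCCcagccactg
Epha3: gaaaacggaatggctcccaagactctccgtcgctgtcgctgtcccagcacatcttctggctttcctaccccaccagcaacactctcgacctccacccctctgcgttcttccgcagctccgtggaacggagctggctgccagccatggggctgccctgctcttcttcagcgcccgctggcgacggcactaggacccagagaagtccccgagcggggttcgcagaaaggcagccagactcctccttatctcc
Efna4: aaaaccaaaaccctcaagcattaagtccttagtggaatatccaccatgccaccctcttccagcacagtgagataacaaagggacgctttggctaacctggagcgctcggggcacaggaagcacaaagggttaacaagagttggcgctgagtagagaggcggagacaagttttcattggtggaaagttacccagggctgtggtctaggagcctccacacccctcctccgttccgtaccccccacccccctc

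Over the 32851 RefSeq windows of 250 bases before a start site, 32.7% held a GC box, 4.84% held TAATTA and 44.8% held CAGNTG. Among the first listed window of each of the 10 members, 8 held a GC box, 2 held TAATTA and 1 held CAGNTG. All 10 members were above the median GC content of 52.4%, and their ratio of observed to expected CG dinucleotides ran from 0.383 to 1.05, against a median of 0.374. Epha8 held 6 GC boxes, 2 of which overlap, and 46 CG dinucleotides in 250 bases. Efna5 held 4 GC boxes, and Epha5 held 2 with a TAATTA that starts 230 bases before the start site. The Efna3 window held 3 GC boxes, of which 2 are in the 224 bases printed, where there were 18 CG dinucleotides and a CG ratio of 0.808. The Efna4 window had no GC box, 7 CG dinucleotides and the lowest CG ratio of the 10, 0.383. Epha3 also had no GC box, with a ratio of 0.683.

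The ligands were the more abundant side at every stage, and both sides gained mRNA. The 5 receptors summed to 5.49 ± 0.79 FPKM (SD, n = 3) at D4 and 13.2 ± 1.53 at D6, while the 5 ligands summed to 35.0 ± 1.96 FPKM at D4 and 67.5 ± 1.40 at D6. The ratio of ligand to receptor FPKM was 6.46 ± 0.878 at D4, 4.66 ± 0.318 at D4H8, 4.06 ± 0.577 at D5 and 5.15 ± 0.557 at D6. These sums and ratios leave out 4 other EphA receptors, among them Epha10, which went from 0.2 FPKM at D4 to 8.81 at D6. At D4 the order of levels ran Efna4, Efna2, Efna5, Epha4, Efna3, Epha7, Efna1, Epha3, Epha8 and Epha5. Neighbours from Efna5 to Epha7, and from Epha3 to Epha5, overlapped in their libraries. At D6 it ran Efna2, Efna3, Efna5, Efna4, Epha4, Epha8, Epha7, Epha5, Efna1 and Epha3, where Efna2 overlapped Efna3 and the genes from Epha8 down overlapped their neighbours.

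**Figure D1:**
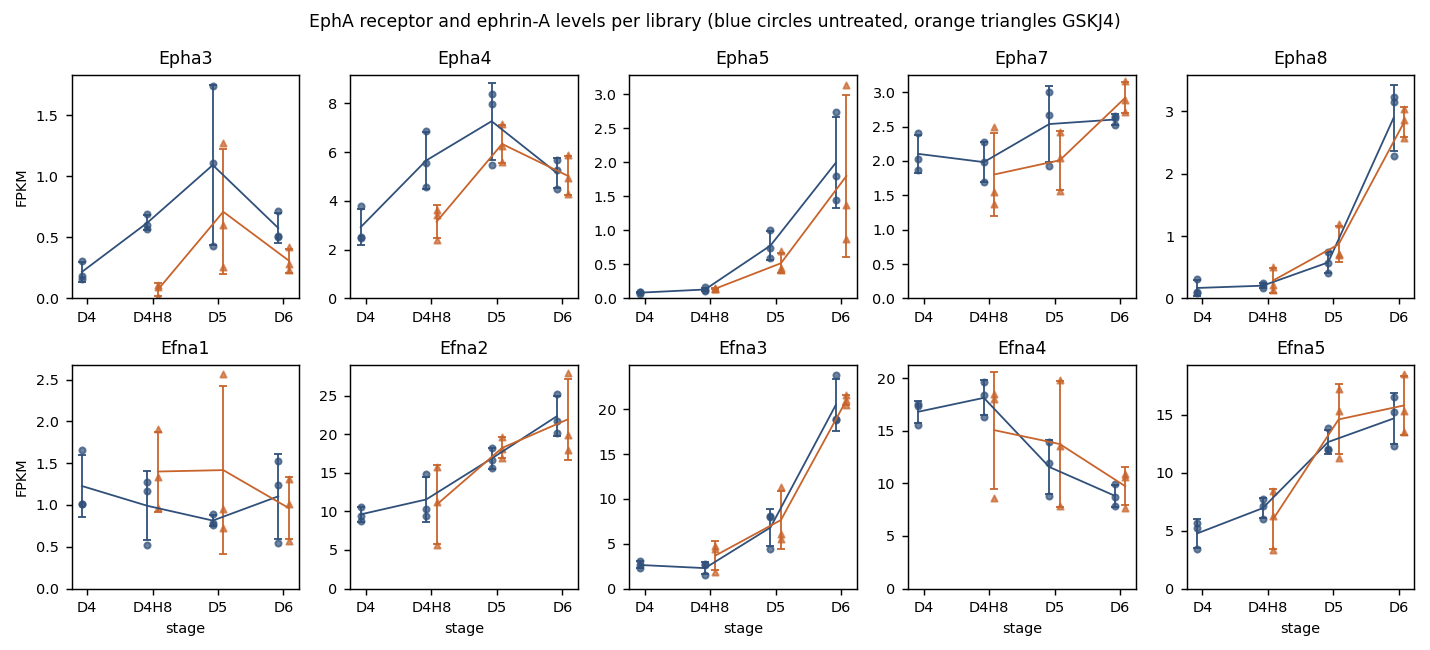
FPKM of each member in every library by stage, with untreated libraries as blue circles and GSKJ4 libraries as orange triangles. Lines join group means, bars are the SD of 3 libraries, and each panel has its own axis from 0. Epha5, Epha8 and Efna3 climb to D6 in both series, Efna4 declines, and Epha3 is lower in the GSKJ4 series at D4H8.

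Between D4 and D6, in the fit of the 12 untreated libraries, 7 members rose, 1 fell and 2 were not called. This stands beside a background of 63.9% of all 17519 genes called in the same comparison. The median log2 fold change was 1.39 over the members and -0.04 over all genes. The groups did not overlap in TMM-scaled CPM for 9 of the 10 members, against 70.2% of all genes. The step from D4 to D4H8 called 1 member (background 4.38%), the step from D4H8 to D5 called 6 (background 27.7%), and the step from D5 to D6 called 4 (background 34.3%). Successive steps share the libraries of the stage between them.

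Among the receptors, Epha5 and Epha8 went from near silence to levels like that of Epha7. Epha5, a receptor known for topographic axon maps, measured 0.07, 0.09 and 0.09 FPKM at D4, 0.11, 0.16 and 0.12 at D4H8, 1.00, 0.59 and 0.74 at D5, and 1.80, 2.74 and 1.45 at D6. Every D5 library was above every earlier one, and every D6 library above every D5 library. The log2 fold change between D4 and D6 was 4.69 (SE 0.306), 25.7-fold, with an edgeR Benjamini-Hochberg adjusted p of 1.52e-08. Most of it came between D4H8 and D5, at 2.60 (± 0.282 SE, adjusted p = 1.31e-05 by edgeR), followed by 1.47 (± 0.254 SE, adjusted p = 0.000629 by edgeR) between D5 and D6.

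Epha8, a receptor with weaker kinase activity than its relatives and known from midbrain axons, rose later. It measured 0.10, 0.09 and 0.31 FPKM at D4, 0.16, 0.21 and 0.24 at D4H8, 0.41, 0.57 and 0.75 at D5, and 3.24, 3.16 and 2.29 at D6. The D4 and D4H8 libraries overlapped, and from then on each stage lay wholly above the one before. Its log2 fold change was 4.22 (± 0.406 SE, adjusted p = 7.33e-07 by edgeR) from D4 to D6, an 18.6-fold rise. The step from D5 to D6 was 2.44 (± 0.361 SE, adjusted p = 0.000201 by edgeR) and that from D4H8 to D5 was 1.54 (± 0.394 SE, adjusted p = 0.00975 by edgeR). The earlier step rests on D5 replicate 3, without which its edgeR adjusted p was 0.0509 and its log2 change 1.27.

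Epha4, the receptor of limb-bound motor axons, was the most abundant of the 5 receptors in every untreated group and the 1 member called at the first step. It measured 2.50, 3.78 and 2.49 FPKM at D4, 6.86, 5.55 and 4.56 at D4H8, 5.46, 7.96 and 8.39 at D5, and 4.47, 5.69 and 5.26 at D6. All D4H8 libraries were above all D4 libraries, and the later groups overlapped D4H8. The rise from D4 to D4H8 was 0.91 on the log2 scale (± 0.205 SE, adjusted p = 0.0198 by edgeR), and the changes of 0.35 to D5 and -0.39 to D6 were not called. The call at D4H8 was lost without D4 replicate 1 (edgeR adjusted p = 0.0896), D4 replicate 3 (0.0640) or D4H8 replicate 1 (0.136). Its share of the summed receptor FPKM went from 52.9% ± 7.20 at D4 and 65.4% ± 5.92 at D4H8 to 39.0% ± 3.92 at D6 (SD, n = 3), as Epha5 came to 14.9% ± 3.21 and Epha8 to 21.9% ± 3.57.

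Epha3, the receptor associated with medial column axons, was low at every stage. It measured 0.18, 0.31 and 0.16 FPKM at D4, 0.69, 0.60 and 0.57 at D4H8, 0.43, 1.74 and 1.11 at D5, and 0.50, 0.72 and 0.51 at D6. Every D6 library was above every D4 library, and the D5 libraries spread across the values of D4H8 and D6. Only the comparison of D6 with D4 was called, at 1.5 (± 0.419 SE, adjusted p = 0.00636 by edgeR). The step to D4H8 was 1.49 (SE 0.415) with an edgeR adjusted p of 0.0624, and leaving D5 replicate 1 out of the fit brought that to 0.0111. Without the same library the steps to D5 (1.18, edgeR adjusted p = 0.0146) and from D5 to D6 (-1.17, edgeR adjusted p = 0.0112) also passed.

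Epha7, a receptor also made as a truncated form that favours adhesion, moved least among the receptors. It ranged from 1.87 to 2.41 FPKM at D4 and from 2.52 to 2.66 at D6, with no overlap between them. The difference of 0.38 (SE 0.161) had an edgeR adjusted p of 0.0526, just outside the threshold, and 0.0234 without D5 replicate 1.

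Among the ligands, Efna3 rose from a minor to a leading one. Efna3, a ligand known to engage Epha4 at hippocampal synapses, measured 2.24, 3.03 and 2.63 FPKM at D4, 1.48, 2.75 and 2.61 at D4H8, 4.39, 8.09 and 7.97 at D5, and 18.8, 23.9 and 18.9 at D6. The first pair of stages overlapped, and D5 and D6 were each wholly above what came before. Over D4 to D6 it gained 3.03 on the log2 scale (± 0.255 SE, adjusted p = 2.00e-07 by edgeR), or 8.17-fold, split between a D5 step of 1.61 (± 0.251 SE, adjusted p = 0.000302 by edgeR) and a D6 step of 1.71 (± 0.240 SE, adjusted p = 0.000131 by edgeR).

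Efna4, the neighbour of Efna3 and a ligand with a part in cranial sutures, was the 1 member that fell. It measured 15.6, 17.5 and 17.3 FPKM at D4, 18.4, 19.6 and 16.3 at D4H8, 8.83, 11.95 and 13.9 at D5, and 7.85, 9.90 and 8.70 at D6. All D5 libraries were below all D4H8 libraries, while D5 and D6 overlapped. Measured as log2 fold change, D6 stood at -0.87 against D4 (± 0.162 SE, adjusted p = 0.000333 by edgeR) and D5 at -0.65 against D4H8 (± 0.160 SE, adjusted p = 0.00756 by edgeR). The ratio of Efna3 to Efna4 FPKM was 0.156 ± 0.0150 at D4 (SD, n = 3), 0.127 ± 0.0414 at D4H8, 0.583 ± 0.0902 at D5 and 2.33 ± 0.131 at D6. Efna4 was thus the top ligand at D4 with 48.0% ± 2.59 of the ligand FPKM and held 13.1% ± 1.64 at D6, when Efna3 held 30.4% ± 4.35.

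**Figure D2:**
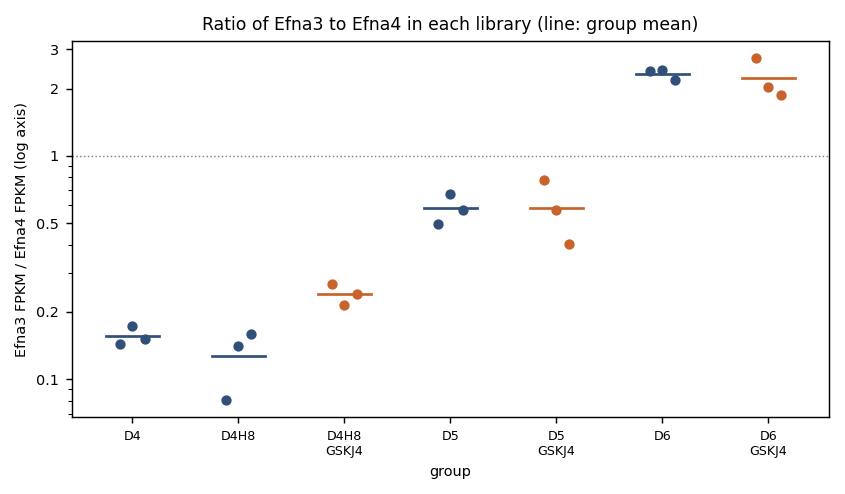
Ratio of Efna3 FPKM to Efna4 FPKM in each library on a log axis, with a line at each group mean, untreated groups in blue and GSKJ4 groups in orange. All 6 D6 libraries lie above 1 and all others below 1.

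Efna5, a ligand that orders neuromuscular and retinal maps, rose between D4H8 and D5. It measured 5.22, 3.38 and 5.68 FPKM at D4, 7.72, 5.98 and 7.12 at D4H8, 13.9, 12.1 and 11.99 at D5, and 16.6, 12.3 and 15.2 at D6. Each stage to D5 lay wholly above the one before, and D5 and D6 overlapped. Its log2 fold change was 1.69 (± 0.204 SE, adjusted p = 6.48e-06 by edgeR) from D4 to D6, of which 0.87 (± 0.199 SE, adjusted p = 0.00495 by edgeR) came between D4H8 and D5. The D4 to D4H8 change of 0.49 (SE 0.201) had an edgeR adjusted p of 0.231.

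Efna2, a ligand that acts with Efna5 in visual maps, rose more slowly and was the most abundant member at D5 and D6. It measured 9.44, 8.78 and 10.6 FPKM at D4, 14.9, 9.38 and 10.4 at D4H8, 15.6, 18.3 and 16.7 at D5, and 25.2, 20.2 and 21.7 at D6. All D6 libraries were above all D5 libraries, and D4H8 replicate 1 stood above the other D4H8 libraries. From D4 to D6 the log2 fold change was 1.29 (± 0.185 SE, adjusted p = 3.28e-05 by edgeR). The steps of 0.54 to D5 (± 0.182 SE, adjusted p = 0.0417 by edgeR) and 0.53 to D6 (± 0.181 SE, adjusted p = 0.0375 by edgeR) were close to the threshold. Of the 12 removals of 1 library, 10 and 6 lost them, with edgeR adjusted p from 0.0509 to 0.176 and from 0.0521 to 0.158. With the replicate number as a block, in a fit whose D4 libraries did not pair, the edgeR adjusted p was 0.0157 to D5 and 0.0233 to D6.

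Efna1, a ligand best known from endothelium, stayed low in all untreated groups, between 0.52 and 1.66 FPKM. Its log2 difference between D6 and D4 was -0.10 (± 0.410 SE, adjusted p = 0.843 by edgeR), with a 95% interval from -1.04 to 0.85.

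**Figure D3:**
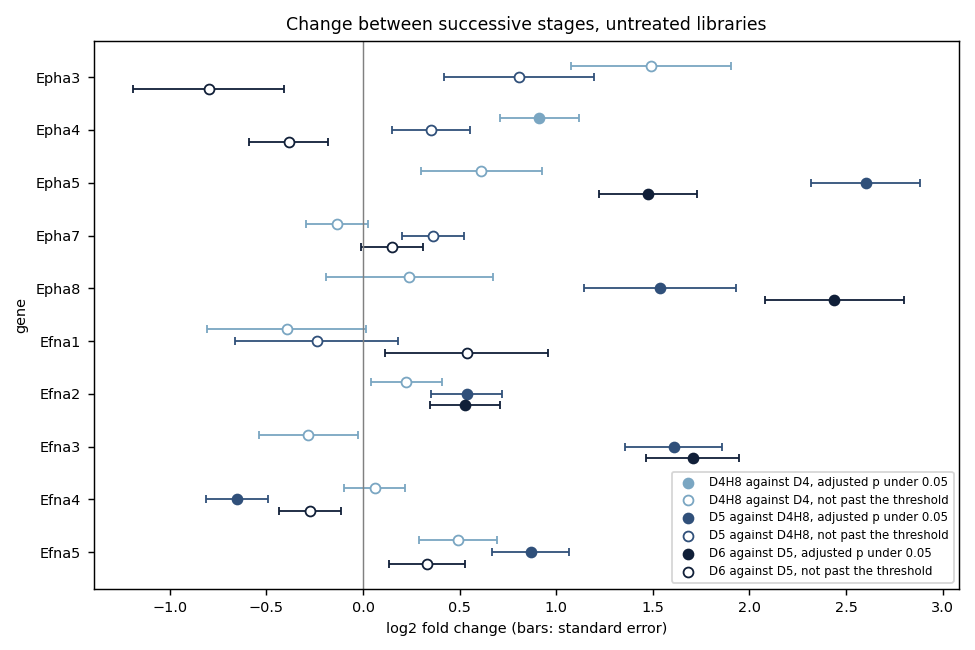
Log2 fold change of each member for the 3 successive steps between untreated stages, with bars of 1 standard error. Filled points passed an adjusted p of 0.05 and open points did not, so Epha4 is filled at the first step, 6 members at the second and 4 at the third.

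GSKJ4 at D4H8 left 1 member called, Epha3, which fell. The background in this comparison of 6 libraries was 3.96% of 16269 genes. The median log2 change was -0.15 over the members and 0.02 over all genes, and 2 of the 10 members had groups without overlap, against 33.2% of all genes. Kdm6b mRNA itself was at 0.22 on the log2 scale (± 0.215 SE, adjusted p = 0.545 by edgeR), which says nothing of enzyme activity.

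Epha3 measured 0.69, 0.60 and 0.57 FPKM (206, 85 and 74 counts) in D4H8 and 0.01, 0.11 and 0.09 FPKM (2, 16 and 12 counts) in D4H8+GSKJ4. Every treated library was below every untreated one, and below every D4 library. The log2 fold change was -3.16 (± 0.575 SE, adjusted p = 0.0253 by edgeR). Leaving out each of the 6 libraries kept it between -3.72 and -2.67. The call was lost without D4H8 replicate 1 (edgeR adjusted p = 0.127), D4H8 replicate 2 (0.0996), D4H8 replicate 3 (0.0814) or D4H8+GSKJ4 replicate 3 (0.0537).

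Epha4 also lay wholly lower, with 3.44, 3.62 and 2.38 FPKM in D4H8+GSKJ4 against 6.86, 5.55 and 4.56 in D4H8. Its log2 difference of -0.87 (SE 0.261) had an edgeR adjusted p of 0.0829, and 0.0400 without D4H8+GSKJ4 replicate 2. With the replicate number as a block the edgeR adjusted p was 0.0175, beside 2274 of all genes called, in a fit whose libraries did not all pair. The 95% interval of the Epha4 difference, from the SE and the residual degrees of freedom, ran from -1.60 to -0.15. The other 8 members overlapped between the groups. Their log2 differences ran from -0.33 (Efna4) to 0.65 (Efna3, ± 0.381 SE, adjusted p = 0.320 by edgeR). Efna4 in D4H8+GSKJ4 replicate 2 was at 8.62 FPKM against 18.1 and 18.5 in the other treated libraries, and Efna2 there was at 5.62 against 15.8 and 11.2.

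Sums of MN and ventral progenitor markers were also lower in the same libraries. The 8 MN genes summed to 15.8 to 37.7 FPKM with GSKJ4 against 60.6 to 63.4 without, and 3 of the 7 tested were called lower. The 5 ventral progenitor genes summed to 55.5 to 116 against 219 to 299, with 2 called lower. The background was 3.96% of all genes. Isl1, a homeodomain factor of newborn MNs, fell by 2.44 on the log2 scale (± 0.320 SE, adjusted p = 0.0103 by edgeR), and Olig2, the MN progenitor factor, fell by 3.91 (± 0.514 SE, adjusted p = 0.0103 by edgeR). Feeder fibroblast markers summed to 13.8 to 29.6 FPKM with GSKJ4 against 8.17 to 15.9 without, and pluripotency markers to 109.8 to 246 against 55.8 to 237. These last 2 lists overlapped between the groups, and none of their tested genes was called. The part of all these markers in the Epha3 and Epha4 values was not tested.

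GSKJ4 at D5 called 0 members by edgeR, with a background of 0.00613% of 16309 genes. None had an unadjusted edgeR p under 0.05, where 767 of all genes did, and DESeq2 also called 0 members, beside 74 of all genes. All 10 members overlapped between the groups, where 11.6% of all genes did not. Epha3 measured 0.26, 1.27 and 0.60 FPKM with GSKJ4 against 0.43, 1.74 and 1.11 without, a log2 difference of -0.68 (SE 0.593) with a 95% interval from -2.32 to 0.97. Epha4 differed by -0.24 (SE 0.186, 95% interval from -0.76 to 0.28). The 3 chromosome 3 ligands were each highest, among the treated libraries, in replicate 2, the library with most genes at 0. Efna1 was at 2.57 FPKM there against 0.73 and 0.95, Efna3 at 11.4 against 6.10 and 5.50, and Efna4 at 19.8 against 7.82 and 13.6. Efna1 had the highest log2 difference at D5, 0.74 (SE 0.676), which was 0.01 without that library.

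GSKJ4 at D6 called 0 members by edgeR without pairing, with a background of 0% of 16301 genes. Only Epha3 of the members had an unadjusted p under 0.05 there, where 222 of all genes did. DESeq2 called 0 members, beside 1 of all genes. The D6 groups did not overlap for 2 members, Epha3 and Epha7, against 5.18% of all genes. Epha3 measured 0.23, 0.42 and 0.28 FPKM with GSKJ4 against 0.50, 0.72 and 0.51 without. The log2 difference was -0.92 (SE 0.302), with an edgeR unadjusted p of 0.0172 and an adjusted p of 1.00. Same-numbered libraries varied together at D6, and with the replicate number as a block the Epha3 difference was -0.93 with an edgeR adjusted p of 0.0353, beside a background of 1.58% called with the block. Epha7 ranged from 2.71 to 3.16 FPKM with GSKJ4 and from 2.52 to 2.66 without, a log2 difference of 0.16 (SE 0.105). Of the genes that rose most to D6, Epha8 measured 3.04, 2.87 and 2.57 FPKM with GSKJ4 and Efna3 21.03, 21.6 and 20.5. Epha5 measured 1.38, 3.14 and 0.88 FPKM against 1.80, 2.74 and 1.45 without. All 3 overlapped their untreated groups, and Epha5 spread most. Without pairing, the 95% interval of the log2 difference was -0.60 to 0.51 for Epha8, -0.30 to 0.36 for Efna3 and -1.43 to 1.10 for Epha5. That Epha5 interval leaves room for a change of more than 2-fold, but it does not use the pairing. With the block, the Epha5 difference was -0.25 (edgeR unadjusted p = 0.0431, adjusted p = 0.439). Epha8 was then at -0.03 (edgeR adjusted p = 0.947) and Efna3 at 0.03 (edgeR adjusted p = 0.910), and no interval was made with the block.

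**Figure D4:**
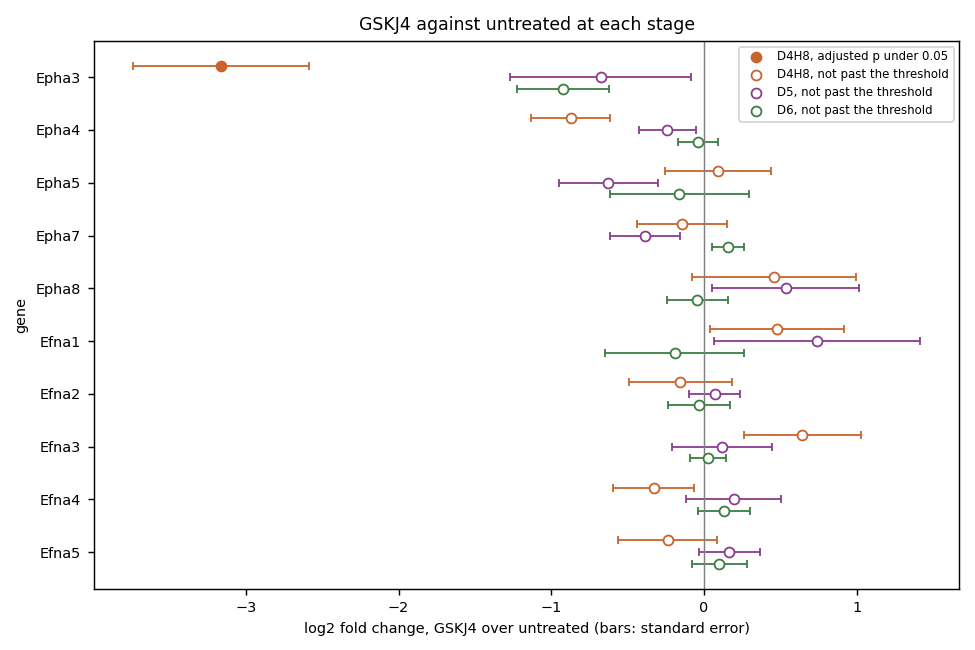
Log2 fold change of GSKJ4 over untreated libraries for each member at D4H8, D5 and D6, with bars of 1 standard error. The 1 filled point, past an adjusted p of 0.05 without a replicate block, is Epha3 at D4H8, and Epha3 is below 0 at all 3 stages.

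Whether the GSKJ4 effect differed between stages was tested over 18 libraries. In edgeR with its filter on low counts and no replicate block, no member was called in any of the 3 comparisons. The backgrounds there were 0.249% for D5 minus D4H8, 0.735% for D6 minus D4H8 and 0% for D6 minus D5. DESeq2 also called no member, beside 235, 603 and 1 of all genes. Unadjusted edgeR p-values under 0.05 numbered 1, 2 and 0 among the members, and 1817, 2477 and 358 among all 18103 genes. For Epha3 the difference in effect was 2.48 (± 0.822 SE, adjusted p = 0.290 by edgeR) at D5 and 2.26 (± 0.833 SE, adjusted p = 0.235 by edgeR) at D6, each minus that at D4H8. For Epha4 it was 0.63 (± 0.310 SE, adjusted p = 0.514 by edgeR) at D5 and 0.85 (± 0.311 SE, adjusted p = 0.231 by edgeR) at D6. With no filter on low counts, edgeR called Epha3 for D5 minus D4H8 (adjusted p = 0.0187) and D6 minus D4H8 (adjusted p = 0.0363). With the replicate number as a block, edgeR called Epha3 (adjusted p = 0.0492) and Epha4 (adjusted p = 0.0415) for D6 minus D4H8, beside 880 of all genes. Not all same-numbered libraries of that fit varied together. Whether the effect on Epha3 and Epha4 differed between stages thus depended on the setting.

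The shares within each family were also set side by side with and without the inhibitor. Under GSKJ4 at D6, Epha4 held 39.2% ± 3.10 of the receptor FPKM (SD, n = 3) and Epha8 22.3% ± 3.77, and Efna3 held 30.4% ± 2.82 and Efna4 14.2% ± 3.54 of the ligand FPKM. The untreated D6 shares were 39.0%, 21.9%, 30.4% and 13.1%. Epha3 held 2.37% ± 0.373 of the receptor FPKM with GSKJ4 at D6 and 4.33% ± 0.425 without, and 1.27% ± 0.935 against 7.23% ± 0.398 at D4H8.

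**Figure D5:**
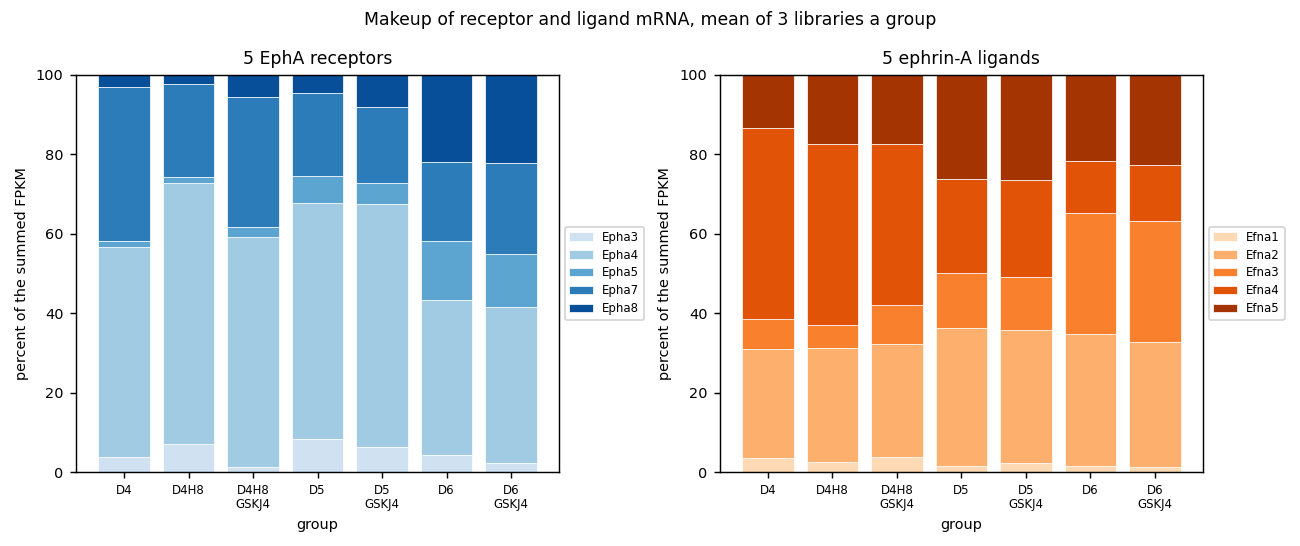
Share of the summed FPKM held by each of the 5 receptors (left) and 5 ligands (right) in the 7 groups, as the mean of 3 libraries. Efna4 gives way to Efna3 among the ligands toward D6, and Epha5 and Epha8 take up part of the Epha4 share among the receptors.

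Across all 21 libraries the log2 CPM of Epha5, Epha8 and Efna3 ran together, with Pearson's r of 0.911 for Epha5 and Epha8, 0.942 for Epha8 and Efna3 and 0.902 for Epha5 and Efna3. Efna4 ran the other way, at -0.762 with Epha5 and -0.601 with Efna3. These are descriptions over libraries that share their stages. Among 11065 other genes with a mean of at least 100 counts, the nearest to Epha5 were the tubulin gene Tubb2a (0.981) and Ttll1, a tubulin glutamylating enzyme complex subunit (0.978). Nearest to Efna3 were the synaptic vesicle gene Syngr3 (0.973), Acvr1b (0.970) and Tmem63c (0.969), and to Efna4 Pfn1, an actin-binding profilin (0.949), Cdc34 (0.949) and Senp3 (0.940). Nearest to Efna5 were Tshz3 (0.965), Plcxd2 (0.962) and Slc39a6 (0.961), and to Efna2 Rtl8b (0.959), Hoxc4 (0.958) and Mex3d (0.956). Epha4 was most like Lrrn1 (0.922), Frmd4b (0.911) and the nicotinic receptor subunit gene Chrnb4 (0.880), and Epha7 like Lrrc4 (0.823), B3galnt1 (0.783) and Pde9a (0.769). Epha3, Epha8 and Efna1 averaged under 100 counts and were not ranked.

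The rest of the Eph system was read against the same 63.9% of all genes called between D4 and D6. Of 4 other EphA receptors, 2 rose and 1 fell, and Epha10, a receptor that lacks kinase activity, rose from 0.2 to 8.81 FPKM (log2 5.56, ± 0.400 SE, adjusted p = 3.99e-08 by edgeR), above every member receptor. Of 8 EphB receptor and ephrin-B genes, 5 rose and 1 fell, with a median log2 change of 0.62. Ephb1, an EphB receptor of ventral limb motor axons, rose by 3.96 (± 0.285 SE, adjusted p = 4.06e-08 by edgeR) and the kinase-inactive Ephb6 by 2.11 (± 0.175 SE, adjusted p = 1.68e-07 by edgeR), while Ephb4, known from veins, fell by 1.43 (± 0.198 SE, adjusted p = 2.33e-05 by edgeR). GSKJ4 called none of the tested genes of these lists at any stage, beside backgrounds of 3.96% at D4H8, 0.00613% at D5 and 0% at D6.

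Of 32 genes that carry or end the EphA signal, 18 rose, 9 fell and 5 were not called between D4 and D6, with a median of 0.47, beside 63.9% of all genes called. Ptpro, a phosphatase that acts on Eph receptors, rose by 9.77 (± 0.433 SE, adjusted p = 5.03e-10 by edgeR), from a mean of 0.0133 FPKM to 11.9. Cdk5r1, the neuronal activator of Cdk5, rose by 5.97 (± 0.219 SE, adjusted p = 1.48e-10 by edgeR). Yes1, a Src family kinase, fell by 1.16 (± 0.156 SE, adjusted p = 1.85e-05 by edgeR), and Inppl1, a lipid phosphatase, fell by 1.00 (± 0.150 SE, adjusted p = 4.93e-05 by edgeR). All 6 genes for receptors known to work beside ephrin-A or to share its pathways rose, with a median of 3.69. Ngfr went from 1.61 to 153.8 FPKM (log2 6.67, ± 0.291 SE, adjusted p = 4.34e-10 by edgeR), and the neurotrophin receptor gene Ntrk3 rose by 4.70 (± 0.273 SE, adjusted p = 4.97e-09 by edgeR). At D4H8, GSKJ4 called 1 gene of these 2 lists, beside 3.96% of all 16269 genes called. That gene was Ret, a Gdnf receptor that acts with ephrin-A in motor axons, which fell by 0.97 (± 0.203 SE, adjusted p = 0.0366 by edgeR). None was called at D5 or D6, where the backgrounds were 0.00613% and 0%.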

How the data were processed

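Polyadenylated RNA of 21 libraries, 7 groups of 3, had been sequenced by the authors, who trimmed reads with Fastp, aligned them to mm10 with Hisat2 and counted reads per gene with HTSeq-count. The authors deposited these raw counts and the FPKM made from them with exonic gene lengths. Recomputing FPKM from counts and lengths gave values within 0.005 of those in the file. No sample column was left unused. Symbols and positions came from GENCODE M21 on GRCm38 (55140 genes matched, 260 did not), and promoters from RefSeq (all 10 members matched).

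Counts were tested with edgeR 4.0.16 in R 4.3.3 (quasi-likelihood test, TMM scaling, genes kept by filterByExpr at a minimum count of 10, Benjamini-Hochberg adjustment over all genes tested). Stages were compared in 1 fit of the 12 untreated libraries, GSKJ4 within its own 6 libraries, and differences of its effect over 18. This filter removed no member from these fits. DESeq2 1.42.0, other scalings, filters, fits, a replicate block and the removal of each library were alternatives. On simulated counts, 200 genes were changed by 2 on the log2 scale in fits like GSKJ4 at D4H8, D5 and D6. The procedure recovered 100%, 94.5% and 99.5% of them, with 7, 13 and 16 false calls. The simulation gave all genes 1 shared spread and changed only genes above 2 CPM. It therefore cannot show how often smaller changes, or changes in members with few counts, would be called. Within groups the 21 library pairs differed by a mean chi-square per gene from 6.43 to 104, so none looked like a duplicate. The main tests used no replicate block, and the block was run on every fit as an alternative. Same-numbered libraries were read as varying together only where every pair's correlation of deviations exceeded 0.1. This held for GSKJ4 at D6 (0.757, 0.431 and 0.574) and, among the stages, for D4H8, D5 and D6 with each other, but not for D4.

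The members and gene lists were chosen with earlier results of these data known. All members are named. From each other list the rule allowed up to 2 higher and 2 lower called genes by largest change, for D6 against D4 and for each GSKJ4 comparison, with a mean of at least 100 counts. Likeness used log2 CPM with a prior count of 2. Intervals use the SE and the residual degrees of freedom.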

Additional observations from a re-analysis of the deposited data

How the results depend on the processing

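Of 1890 member estimates under alternatives, 66 changed sign, and none of these belonged to the 20 called differences, whose 370 estimates kept their direction. Of the 29 calls lost, 24 were lost on leaving out 1 library. Members called for D4H8 against D4 numbered 1, and 2 with DESeq2, with no filter and with the replicate block (Epha3 added), and 0 to 2 on leaving out 1 library. For GSKJ4 at D4H8 they numbered 1, and 2 with DESeq2, no filter, the replicate block and 1 fit over 21 libraries (Epha4 added), 0 to 2 on leaving out 1 library, and 0 with at least 10 counts in every library, a filter that removed Epha3. Not every same-numbered pair of treated and untreated libraries exceeded 0.1 at D4H8 (0.490, 0.0895 and 0.298) or D5 (0.255, 0.0596 and 0.232). For GSKJ4 at D6 the replicate block called 1 member. With no filter, 1 member (Epha3) was called for the effect at D5 minus D4H8 and 1 for D6 minus D4H8, where the replicate block called 2 (Epha3 at an edgeR adjusted p of 0.0492 and Epha4 at 0.0415). For D6 against D5, Epha3 was called lower with no filter (-0.80, edgeR adjusted p = 0.0459). In D6 against D4, Epha7 was called with DESeq2, RLE scaling, the filter in every library and the replicate block. The block changed no other member call. Efna2 for D5 against D4H8 was not called with RLE scaling or 1 fit over 21 libraries, nor for D6 against D5 with upper-quartile scaling or that fit, and Efna4 for D5 against D4H8 was not called with that fit. The median log2 change of all genes for D6 against D4 was -0.04, and -0.19 with upper-quartile scaling, under which 5144 genes were higher and 6342 lower against 5761 and 5427, and the directions of the called members held.

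All genes called for D4H8 against D4 numbered 767 in edgeR, 1191 with DESeq2, 1319 with no filter and 422 with 1 fit over 21 libraries (350 to 912 on leaving out 1 library). For D5 against D4H8 they numbered 4861, and 3218 with 1 fit over 21 libraries. For GSKJ4 at D4H8 they numbered 644, 2196 with DESeq2, 2287 with no filter, 2274 with the replicate block and 2048 with 1 fit over 21 libraries (43 to 1746 on leaving out 1 library). For GSKJ4 at D5 they numbered 1, 74 with DESeq2, 128 with no filter, 4 with the replicate block and 9 with 1 fit over 21 libraries (1 to 6 on leaving out 1 library). For GSKJ4 at D6 they numbered 0, 1 with DESeq2 and 257 with the replicate block. For the effect at D5 minus D4H8 they numbered 45, 235 with DESeq2, 351 with no filter and 321 with the replicate block (16 to 172 on leaving out 1 library). At D6 minus D4H8 they numbered 133, 603 with DESeq2, 626 with no filter, 208 with at least 10 counts in every library and 880 with the replicate block (40 to 284 on leaving out 1 library). At D6 minus D5 they numbered 0, 1 with DESeq2 and 13 with no filter (0 to 1 on leaving out 1 library). The cause of these differences was not tested.

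Leaving out 1 library moved some uncalled log2 differences across 0. For D4H8 against D4 the range was -0.061 to 0.97 for Epha8 and -0.036 to 0.36 for Efna2. For D6 against D4 the range was -0.39 to 0.21 for Efna1. For GSKJ4 at D4H8 the range was -0.015 to 0.25 for Epha5, -0.53 to 0.033 for Epha7, -0.18 to 0.80 for Epha8, -0.51 to 0.12 for Efna2 and -0.52 to 0.073 for Efna5. For GSKJ4 at D5 the range was -0.019 to 0.14 for Efna2, -0.25 to 0.32 for Efna3, -0.15 to 0.46 for Efna4 and -0.0075 to 0.33 for Efna5. For GSKJ4 at D6 the range was -0.15 to 0.038 for Epha4, -0.81 to 0.18 for Epha5, -0.20 to 0.079 for Epha8, -0.50 to 0.10 for Efna1, -0.28 to 0.10 for Efna2, -0.043 to 0.14 for Efna3 and -0.068 to 0.23 for Efna5. Levels kept within 1 SD for the highest member of each group with TMM-scaled FPKM or medians, and at most 2 ranks of a group changed. Epha3, Epha8 and Efna1 rest on few counts, which limits what their comparisons can show.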
